A study of Mus musculus with 76 samples.

Results

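The transition from oocyte to 2-cell embryo in wild-type (WT) mice was described from 14 of the 76 libraries of the series, namely all 11 libraries of WT 2-cell embryos and all 3 of WT oocytes. They were chosen by their labels alone, and the count tables of the 2 stages were joined by gene symbol. Each library held polyadenylated RNA from a single embryo or a single oocyte and was built with a Swift Accel-NGS kit. Of the embryos, 5 were female and 6 were male, and the oocytes carry the label female. The series is about early development after maternal loss of Ezhip, whose protein inhibits the Polycomb repressive complex PRC2, and none of these 14 libraries has that loss. A test of the difference also used 12 embryos at the 2-cell stage (6 female, 6 male) and 4 oocytes of the maternal Ezhip knockout (matKO). Later levels came from 4 WT blastocysts that share the library prefix. Strain, the maturation stage of the oocytes, the time after fertilization, litters, donors, the deleted allele and the way sex was assigned are not stated in the labels. P-values measure the spread from library to library within a stage, part of which may be technical.

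An oocyte stores the RNA and protein on which the embryo runs until its own genome is switched on. In the mouse the main wave of zygotic genome activation falls at the 2-cell stage, when transcription factors such as Dux and the Obox homeobox proteins act on genes that are silent in most other cells. Over the same period maternal RNA is stripped of its poly(A) tail and degraded, a process that begins during oocyte maturation. Levels are TMM-scaled CPM, counts brought to a common library total, and so are shares of a library. No spike-in is named, so fewer transcripts per embryo and a smaller share of the RNA cannot be told apart. The libraries hold polyadenylated RNA, so a change in the poly(A) tail and a change in the amount of an RNA cannot be told apart either.

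The libraries differed before any gene was considered. Total counts ran from 1049224 to 14127560 in the embryos and from 11489867 to 13131313 in the oocytes, with female embryo 5 (1049224) and male embryo 3 (1193430) the shallowest. Library numbers were 25 to 36 in embryos and 17 to 19 in oocytes, so library order and stage cannot be told apart. The first principal component of log2 CPM held 46% of the variance and put every embryo (38.1 to 158) apart from every oocyte (-261 to -246). The 10 oocyte-defining markers summed to between 1314 and 3037 CPM in embryos and to between 27227 and 31944 CPM in oocytes. Female embryo 1, male embryo 1 and male embryo 2, with library numbers 25, 26 and 27, stood apart from the other 8 embryos. Their 16 granulosa cell markers summed to 23.6, 0 and 9.74 CPM, against 191 to 1563 CPM in the other 8 embryos and 1078 to 2677 CPM in the oocytes. Inha, Star and Nr5a1 were among 8 markers with no count in these 3, while in the other 8 embryos 13 of 16 markers had a count, and in oocytes 14. Markers of decidual stroma summed to between 0 and 11.5 CPM in the 3 embryos, to between 29.6 and 139 CPM in the 8 and to between 127 and 202 CPM in oocytes. Summed blood and macrophage markers followed the same order. Single genes differed, with Hba-a1 averaging 0.0639 CPM in oocytes, 3.05 CPM in the 3 embryos and 11.6 CPM in the 8. The granulosa marker Tnfaip6 averaged 0, 0.910 and 4.39 CPM in the same order. Each was the 1 member called higher in embryos, against 1 called lower among 10 tested blood genes and 4 among 11 tested granulosa genes. Over all tested genes 25% were higher and 21.7% lower. With only the 3 embryos, 9 of 10 tested granulosa genes were lower and 0 higher, which the choice by these markers favours. Of 5 tested blood genes 5 were then lower and 0 higher. Without the 3 embryos 2 of 9 tested blood genes were higher. Cytosolic ribosomal protein genes took 5.79%, 9.25% and 7.27% of the counts in the 3 embryos, against 2.70% to 3.64% in the 8 and 2.40% to 3.61% in oocytes. The part that these other cells or these 3 libraries have in the results was not tested, and the counts of a list are given without these 3 or with only these 3 where either moves a printed count by over 1.5 times.

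Large sets of genes were higher and lower in 2-cell embryos than in oocytes. Of 16620 genes tested, 4153 (25%) were higher in 2-cell embryos and 3609 (21.7%) were lower at an adjusted p under 0.05 (edgeR quasi-likelihood test, Benjamini-Hochberg). When the change was tested against 2-fold with glmTreat of edgeR, 3011 genes (18.1%) were higher and 2443 (14.7%) were lower. These 3011 genes held 31.8% to 37.8% of the counts in embryos and 4.50% to 4.94% in oocytes. The 2443 genes held 4.36% to 7.81% in embryos and 40.9% to 41.6% in oocytes, shares that come from the contrast that chose the genes. For 711 of the 3011 genes no oocyte had a count, and for 62 of the 2443 genes no embryo had a count. Every embryo lay above every oocyte for 2670 of the tested genes (16.1%) and below every oocyte for 3543 (21.3%), whether called or not. Without the 3 embryos that lack granulosa markers 4679 genes were higher and 4350 lower. With only those 3 embryos against the oocytes the counts were 2625 and 3397, of which 2383 and 2376 were also called over all 11, and the median log2 fold change of all genes moved by -0.25. The split between directions depends on scaling, since DESeq2 size factors moved the median log2 fold change of all genes by -0.28 and library totals moved it by 0.16. Under these 2 scalings 45.3% and 57.9% of the called genes were higher, against 53.5% with TMM.

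**Figure D1:**
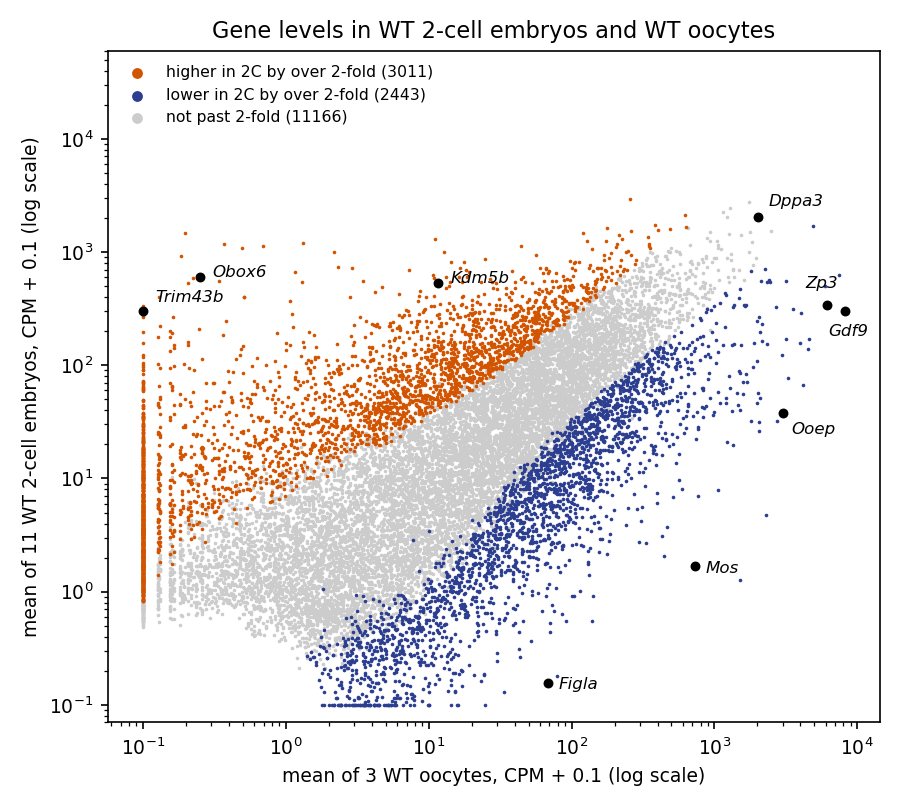
Mean level of each of the 16620 tested genes in the 11 WT 2-cell embryos (vertical axis) and the 3 WT oocytes (horizontal axis), both in CPM plus 0.1 on log scales. The 3011 genes higher in embryos by over 2-fold lie above the diagonal and the 2443 lower genes below it, with Trim43b at the left edge because no oocyte had a count.

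Genes with few or no counts in oocytes made up the largest rises. By the rule for named genes, the 12 largest included Trim43b, Kcnk6, Klhl11, Crxos, Tnfaip8l2, Rtn2, Cst7, Klf5, Tbxa2r, Obox8 and Pramel6. Trim43b, of the tripartite motif family (chr9:89084624-89092835), had a lowest level of 210.3, a median of 281 and a highest level of 449 CPM in embryos, and 0 CPM in each oocyte. Measured against a floor of 3 counts over the oocytes, it was at least 3485-fold higher. Kcnk6, a potassium channel gene, lay between 93.9 and 562 CPM in embryos with a median of 205 CPM, and had no count in any oocyte, which makes it at least 3469.6-fold higher. Every embryo thus had counts of both genes and no oocyte had any, a separation of the groups that the rule for named genes required. Over the other 6 of these named genes with no oocyte count the same bound ran from 787-fold for Tbxa2r, the thromboxane receptor, to 2183-fold for Klhl11, an adaptor of cullin ubiquitin ligases. Klf5, a transcription factor needed for the first lineages, ranged from 9.83 to 127 CPM in embryos with a median of 71.5 CPM. Crxos, a homeobox gene of early embryos, reached 247 to 941 CPM (median 356 CPM) in embryos and had 1 count in the 3 oocytes, a ratio of summed levels of 14726 with a 95% counting interval of 2643 to 581643. Kcnk6 and Crxos were higher in each of the 3 embryos that lack granulosa markers (370 to 562 CPM and 459 to 941 CPM) than in any of the other 8 (93.9 to 256 CPM and 247 to 395 CPM). Of the 31-base words of Trim43b transcripts, 64.6% also occur in other genes, so its counts may include those of close copies.

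The transcripts known for a burst at the 2-cell stage, many of them targets of Dux, rose in most cases. Of 35 such genes 29 passed the filter on counts, 24 of these were called higher and 3 lower, and the median log2 fold change was 6.86, or 5.42 with genes at 0 in oocytes set to their bounds, against 0.02 over all tested genes. Of all tested genes 25% were higher and 21.7% lower. A gene of this list that passed the filter through the embryos alone had to differ, so the count describes the list and is no further support. With only the 3 embryos that lack granulosa markers, 13 of 23 were called higher and 3 lower. Of all 14272 genes tested in that fit 2625 were higher and 3397 lower. Zscan4a, a zinc finger gene of the telomere-lengthening Zscan4 family, had between 3.39 and 163 CPM in embryos with a median of 54.2 CPM, and no count in oocytes. It was at least 585-fold higher (log2 fold change 11.94 ± 1.61 SE, adjusted p 1.12e-05, edgeR). Zscan4f stood at 0.399 to 35.2 CPM (median 10.5 CPM) in embryos and at 0 in oocytes, and was at least 147-fold higher. Its 3 lowest embryos were the 3 that lack granulosa markers, at most 5.56 CPM, while the other 8 had at least 7.10 CPM. Zscan4c rose by 3.61 ± 0.88 (SE) on the log2 scale, with 3.79 to 48.3 CPM (median 19.8 CPM) in embryos and 1.61, 1.92 and 2.48 CPM in oocytes. Zscan4d did not pass, with 7.96 to 89.7 CPM (median 43.3 CPM) in embryos and 23.8, 40.8 and 22.8 CPM in oocytes (log2 fold change 0.63 ± 0.54 SE, adjusted p 0.354, edgeR). Of the embryos, 6 lay above every oocyte for Zscan4d and 2 below every oocyte. The 4 genes share between 65% and 91.7% of their 31-base words with other genes, so counts of single copies are uncertain.

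The promoters of Zscan4c and Zscan4f, which rose, of Zscan4d, which was not called, and of Pramel6, which rose, are shown because a part of the Dux motif, TGATTNAAT, was sought on both strands. Each is the 250 bases before the start of the gene in the RefSeq table for GRCm38.p6, on the strand of the gene: Zscan4c at chr7:11005495-11005744 (plus strand), Zscan4f at chr7:11397665-11397914 (plus), Zscan4d at chr7:11166149-11166398 (minus) and Pramel6 at chr2:87506315-87506564 (plus). Capitals mark a match.
Zscan4c: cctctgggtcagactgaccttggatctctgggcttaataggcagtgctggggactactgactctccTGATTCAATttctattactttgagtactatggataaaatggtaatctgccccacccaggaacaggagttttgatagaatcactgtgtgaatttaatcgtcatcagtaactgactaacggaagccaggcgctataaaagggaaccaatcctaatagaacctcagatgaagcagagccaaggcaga
Zscan4f: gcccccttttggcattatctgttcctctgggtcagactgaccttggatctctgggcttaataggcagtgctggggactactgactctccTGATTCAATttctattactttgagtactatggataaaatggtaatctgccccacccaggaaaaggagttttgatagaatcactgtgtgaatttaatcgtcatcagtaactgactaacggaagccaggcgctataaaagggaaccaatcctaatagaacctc
Zscan4d: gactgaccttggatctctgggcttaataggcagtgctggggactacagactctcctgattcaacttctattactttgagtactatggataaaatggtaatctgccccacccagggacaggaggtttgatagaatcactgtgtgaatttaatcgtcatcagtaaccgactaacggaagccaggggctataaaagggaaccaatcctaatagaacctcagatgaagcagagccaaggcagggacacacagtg
Pramel6: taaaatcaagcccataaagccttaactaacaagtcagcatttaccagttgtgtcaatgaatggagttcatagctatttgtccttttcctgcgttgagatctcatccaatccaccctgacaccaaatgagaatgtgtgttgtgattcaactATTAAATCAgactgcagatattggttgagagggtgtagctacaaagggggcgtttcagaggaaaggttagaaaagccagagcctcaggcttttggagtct
The match lies 184 bases before the start in Zscan4c, 161 in Zscan4f and 100 in Pramel6, where it reads on the other strand. In the aligned stretch Zscan4d differs by the substitution T9C, counted from 1 at the first base of the motif in Zscan4c, and holds no match. The promoters of Zscan4c and Zscan4f were 99.6% identical over 227 aligned bases, and those of Zscan4c and Zscan4d 97.1% over 239. Over the promoters compared further below, the motif was in 0.513% of genes called higher by 2-fold and 0.651% of those called lower. For genes not called the share was 0.243%. Pramel7, Tdpoz1, Sp110 and Zfp352, which also rose, held no match there, while Rfpl4, with a lower mean in embryos than in oocytes, held one. A match is a description of letters and not a site of binding, and its link to the rises was not tested.

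Other genes of the list spread widely in size. Pramel6 and Pramel7, of the PRAME-like family, had 114 to 383 CPM (median 209 CPM) and 30.8 to 313 CPM (median 149 CPM) in embryos, and 1 and 2 counts in the 3 oocytes. Their log2 fold changes were 12.23 ± 0.70 and 11.23 ± 1.08 (SE). Tdpoz1, which codes for a protein with TRAF and POZ domains, had 33.2 to 158 CPM in embryos and 0.644, 1.25 and 0 CPM in oocytes. Sp110, a nuclear body protein gene, was already present in oocytes at 329.7, 225 and 226 CPM and rose to 743 to 2570.1 CPM in embryos (log2 fold change 2.57 ± 0.38 SE, adjusted p 1.91e-05, edgeR), and 55.5% of its 31-base words occur elsewhere. Each of these 4 genes was higher in every embryo than in any oocyte. The 3 members that fell were Zfp277, Arg2 and Tcstv1. Zfp277, a zinc finger gene, had 13.2 to 58.2 CPM (median 40.9 CPM) in embryos and 357, 501 and 545 CPM in oocytes. Arg2, the mitochondrial arginase, fell by 3.04 ± 0.35 (SE) on the log2 scale and Tcstv1 by 2.11 ± 0.43 (SE), each with all 11 embryos under every oocyte.

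The Obox homeobox genes, which code for factors of genome activation, split by member. All 7 were tested, 3 rose and 4 fell, and the groups did not overlap for any of the 7. Over all tested genes 16.1% had every embryo above every oocyte and 21.3% every embryo below. Obox6 (chr7:15833241-15839678) had 465 to 770.4 CPM in embryos with a median of 598 CPM, and 0, 0.0958 and 0.354 CPM in oocytes. Its log2 fold change was 11.86 ± 0.59 (SE) with an adjusted p of 2.48e-11 by edgeR, and the ratio of summed levels was 4261 with a 95% counting interval of 1826 to 13123. Obox8 had 295 to 927 CPM (median 538 CPM) and Obox3 63.1 to 376 CPM (median 214 CPM) in embryos. Over the 3 oocytes Obox8 had 4 counts and Obox3 had 5. The maternal members moved the other way. Obox2 had 90.4 to 260.2 CPM (median 151 CPM) in embryos and 2704, 4431 and 4806 CPM in oocytes, and Obox1 had 67.3 to 269.9 CPM (median 157 CPM) in embryos and 1511, 2791 and 2728 CPM in oocytes. Obox7 fell by 3.41 ± 0.30 (SE) and Obox5 by 2.11 ± 0.37 (SE) on the log2 scale. Obox1 and Obox2 share 71.2% and 80.3% of their 31-base words with other genes, so their split is uncertain. Both directions held under all scalings.

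Zfp352, a zinc finger gene, also rose, and its promoter is shown for repeated matches to a homeodomain motif. It had 0 to 159.6 CPM in embryos with a median of 61.8 CPM and 1 count over the oocytes, and male embryo 1 was the embryo without a count. The log2 fold change was 10.49 ± 1.77 (SE) with an adjusted p of 8.38e-05 by edgeR. Its 250 bases before the start in RefSeq GRCm38.p6, chr4:90218570-90218819 on the plus strand, hold 9 matches to GGATTA on either strand, between 61 and 227 bases before the start. GGATTA is a motif of Obox-like homeodomains, and capitals mark the matches.
Zfp352: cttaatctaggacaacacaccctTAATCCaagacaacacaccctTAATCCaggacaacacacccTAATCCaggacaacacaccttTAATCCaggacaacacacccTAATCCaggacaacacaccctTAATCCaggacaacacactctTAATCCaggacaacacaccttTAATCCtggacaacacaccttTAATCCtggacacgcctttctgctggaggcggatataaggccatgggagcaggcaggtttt
The motif was present in the 300-base promoters of 8.10% of genes called higher by 2-fold, 6.80% of those called lower, 5.21% of genes not called and 6.83% of all promoters in the table.

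Transcription factors named as activators of the embryonic genome rose in many cases. Of 30 genes 28 were tested, 15 were higher and none lower, where 25% of all tested genes were higher and 21.7% lower. The median log2 fold change was 2.11. Members that pass the count filter through embryos alone, such as Rarg with no count in oocytes, favour a higher call. The count of higher genes therefore only describes the list. Gabpa, an ETS family activator, had 421 to 718 CPM (median 556 CPM) in embryos and 6.52, 1.25 and 2.30 CPM in oocytes, a log2 fold change of 7.36 ± 0.50 (SE, adjusted p 1.15e-09, edgeR). Kdm5b, which removes methyl groups from H3K4, had 461 to 652 CPM (median 532 CPM) in embryos and 8.77, 11.3 and 14.3 CPM in oocytes, a log2 fold change of 5.54 ± 0.31 (SE, adjusted p 8.17e-11, edgeR). Dppa4, a chromatin factor of pluripotent cells, rose by 5.23 ± 0.40 (SE) to 237 to 631 CPM. For all 3 the lowest embryo exceeded the highest oocyte. Rarg, a retinoic acid receptor, had 19.2 to 64.3 CPM in embryos and no count in oocytes, at least 408-fold higher. Without the 3 embryos that lack granulosa markers 20 of 28 were higher, and 1 member was called lower with DESeq2 size factors.

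**Figure D2:**
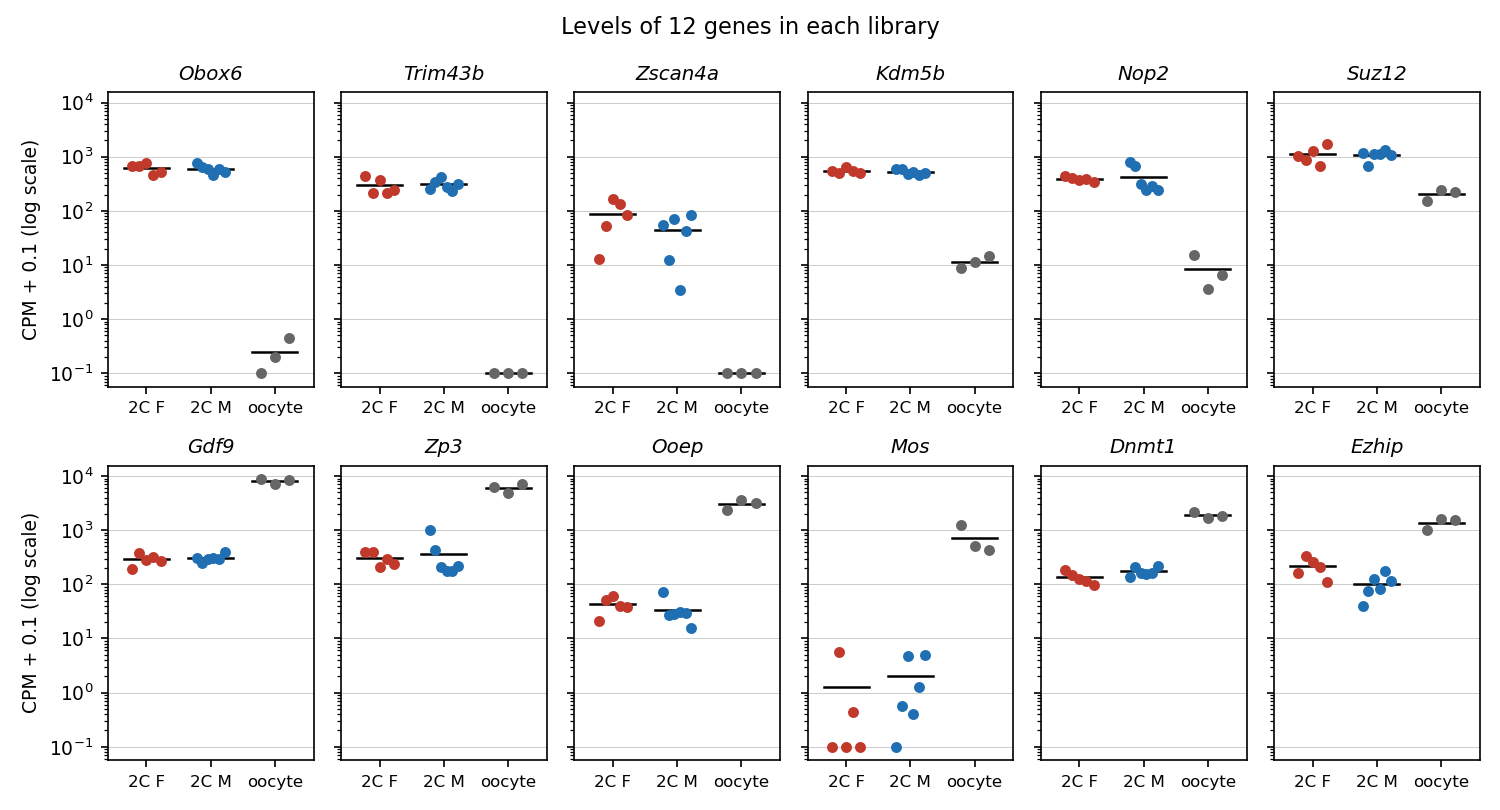
Level of 12 genes in each library, in CPM plus 0.1 on a log scale, with 1 point per library for 5 female (2C F) and 6 male (2C M) WT 2-cell embryos and 3 WT oocytes, and a bar at the mean of each group. All 6 genes of the upper row lie higher in every embryo than in any oocyte, and all 6 of the lower row lie lower in every embryo.

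The machinery of transcription changed unevenly. Of 31 tested genes of RNA polymerase II and its general factors, 14 rose and 6 fell. Cdk9, the kinase that releases paused polymerase, had 166 to 398 CPM (median 273 CPM) in embryos and 24.8, 12 and 17.1 CPM in oocytes (log2 fold change 3.93 ± 0.38 SE). Polr2f and Polr2h, subunits shared by the RNA polymerases, rose by 3.45 ± 0.34 and 4.53 ± 0.57 (SE). Tbpl2, the TATA-binding protein paralogue that oocytes use, fell, with 0 to 1.62 CPM (median 0 CPM) in embryos and 37.8, 9.39 and 15.2 CPM in oocytes, and Gtf2b fell by 2.88 ± 0.29 (SE). Taf4b, a TFIID subunit of germ cells, rose by 2.91 ± 0.34 (SE). Among 32 core splicing genes 9 rose, such as Srsf1 at a log2 fold change of 2.45 ± 0.32 (SE), and 3 fell, with Sf3b3 at -1.58 ± 0.25 (SE), where 25% of all tested genes were higher and 21.7% lower. The fallen genes numbered 5 with DESeq2 size factors or without male embryo 1, and 6 without the 3 embryos that lack granulosa markers.

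Most genes of nucleolar ribosome biogenesis rose. All 36 genes were tested, 29 rose and 0 fell, the median log2 fold change was 1.93, and the groups did not overlap for 22. Over all tested genes 25% were higher, and 16.1% had every embryo above every oocyte. Nop2, a methyltransferase of ribosomal RNA, had 246 to 791 CPM (median 369 CPM) in embryos and 15.3, 3.45 and 6.47 CPM in oocytes, a log2 fold change of 5.59 ± 0.56 (SE, adjusted p 1.86e-07, edgeR). Ddx21, a nucleolar RNA helicase, had 122 to 382 CPM (median 225 CPM) in embryos and 23.3, 18.5 and 19 CPM in oocytes. Rrs1 and Wdr43, of the nucleolus, rose by 5.32 ± 0.56 and 2.94 ± 0.30 (SE) on the log2 scale. Every embryo lay above every oocyte for these 4 genes. The summed level was 12819, 16525 and 13134 CPM in the 3 embryos that lack granulosa markers, 7090.2 to 8676 CPM in the other 8 and 3037 to 3570 CPM in oocytes. The list had 28 higher and 0 lower genes both without those 3 and with only those 3.

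The ribosome itself and the proteasome depended on which embryos were read. Over all tested genes 25% were higher and 21.7% lower. Of 75 genes for cytosolic ribosomal proteins 12 rose and 2 fell, with a median log2 fold change of 0.36. Without the 3 embryos that lack granulosa markers 13 rose and 28 fell (median -0.12), and with only those 3 embryos 43 rose and 0 fell (median 1.14). DESeq2 size factors gave 6 and 4, library totals 21 and 2, and leaving out male embryo 1 alone 10 and 8. Rpl9, of the large subunit, had 249.9 to 589 CPM in the 8 embryos, 1147 to 2746 CPM in the 3 and 129, 95.1 and 176 CPM in oocytes. Rps12, of the small subunit, was not called, with 440.3 to 3897 CPM (median 649 CPM) in embryos and 569, 1239 and 1500.0 CPM in oocytes. Of 31 proteasome genes 6 rose and 7 fell. These became 6 and 15 without the 3 embryos, 11 and 3 with only those 3 and 5 and 13 without male embryo 1 alone. Psma7, a core particle subunit, fell over all 11 embryos, with 16 to 199 CPM (median 45.7 CPM) in embryos and 569, 295 and 403 CPM in oocytes. Psmd11, of the regulatory particle, rose by 2.08 ± 0.33 (SE) on the log2 scale.

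**Figure D3:**
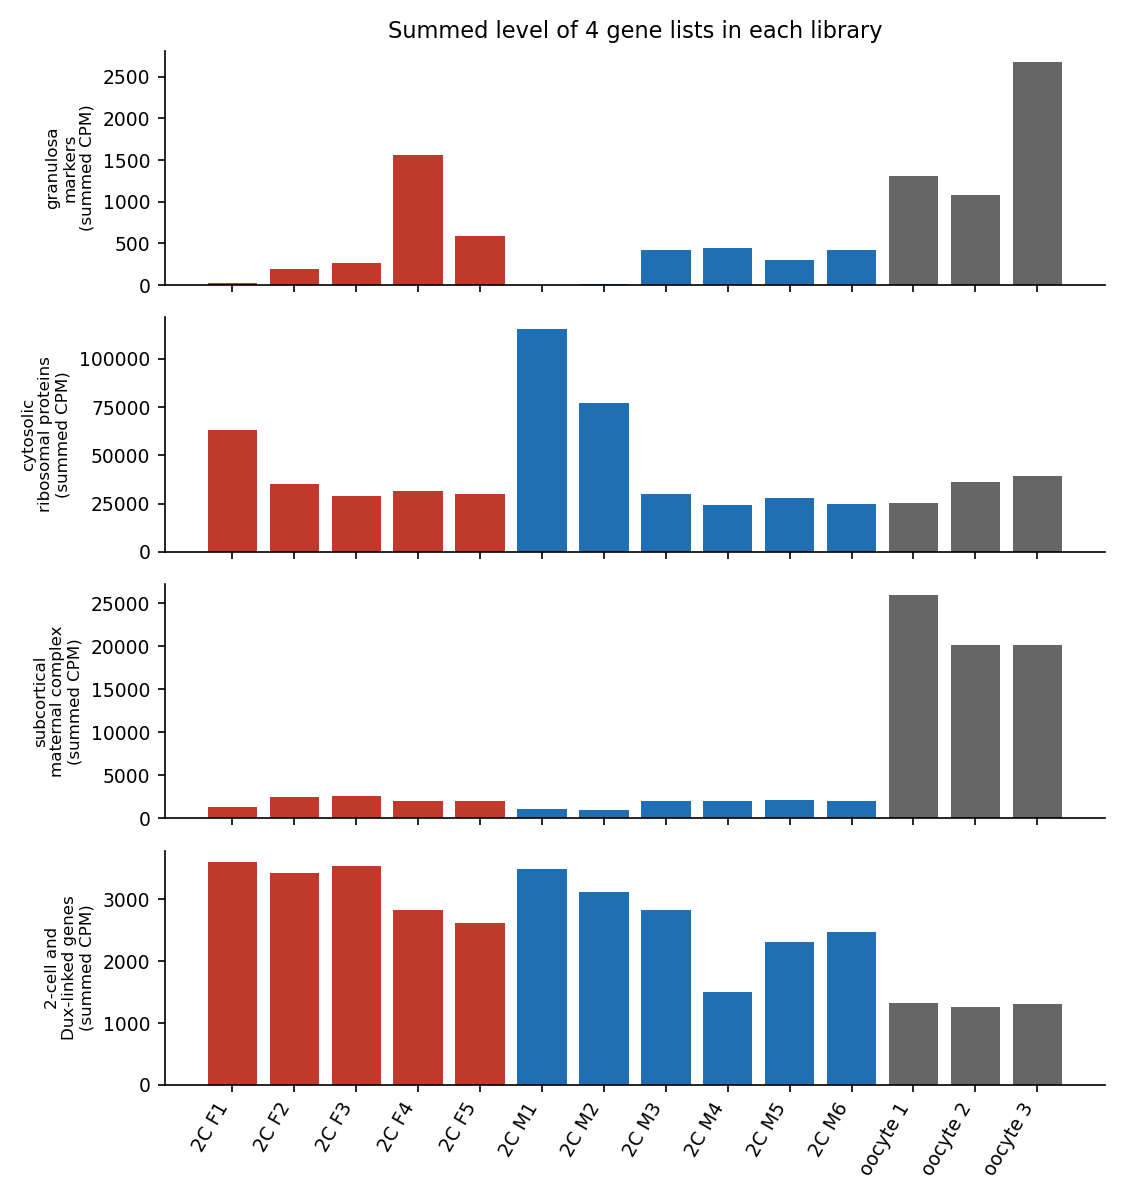
Summed level of 4 gene lists, in CPM on linear axes from 0, in each of the 11 WT 2-cell embryos (female F1 to F5, male M1 to M6) and the 3 WT oocytes. Granulosa markers are near 0 in F1, M1 and M2 (23.6, 0 and 9.74 CPM), where ribosomal protein genes are highest, while the subcortical maternal complex is low in all embryos and high in all oocytes.

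Most RNAs of the oocyte's own program fell. Of 21 genes of the zona pellucida, oocyte-secreted factors and their regulators, all tested, 17 fell and 2 rose, with a median log2 fold change of -3.97. The other 2 were not called. Over all tested genes 21.7% were lower and 25% higher, and 21.3% had every embryo below every oocyte. Gdf9 (chr11:53431023-53437904), a growth factor that oocytes send to granulosa cells, had 195 to 395 CPM (median 297 CPM) in embryos and 8861, 7198 and 8412 CPM in oocytes, a log2 fold change of -4.77 ± 0.20 (SE, adjusted p 1.46e-11, edgeR). Its partner Bmp15 had 40.7 to 217 CPM (median 155 CPM) in embryos and 3196, 4898 and 5401 CPM in oocytes. Zp3, the sperm-binding zona protein, had 176 to 1012 CPM (median 235 CPM) in embryos and 6327, 4879.7 and 7075 CPM in oocytes, a log2 fold change of -4.18 ± 0.38 (SE, adjusted p 4.33e-08, edgeR). Zp1 and Zp2 fell by 4.57 ± 0.37 and 5.41 ± 0.30 (SE), so all 3 tested zona genes were lower in every embryo. Figla, the transcription factor that turns on zona genes, had 0 to 0.386 CPM (median 0 CPM) in embryos and 89.4, 52.7 and 64.1 CPM in oocytes. Nobox, another oocyte transcription factor, fell by 5.97 ± 0.70 (SE) and H1foo, the oocyte linker histone, by 5.99 ± 0.36 (SE). The 2 that rose were Omt2a and Omt2b, oocyte maturation genes. Omt2a had 781 to 2009.8 CPM (median 1079 CPM) in embryos and 176, 305 and 190.3 CPM in oocytes, a log2 fold change of 2.54 ± 0.36 (SE), and Omt2b rose by 1.72 ± 0.37 (SE).

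The promoter of Zp3 is shown because Figla acts on zona genes through an E-box, CANNTG. The 250 bases before the start in RefSeq GRCm38.p6, chr5:135979855-135980104 on the plus strand, hold 3 E-boxes at 181, 134 and 55 bases before the start, in capitals.
Zp3: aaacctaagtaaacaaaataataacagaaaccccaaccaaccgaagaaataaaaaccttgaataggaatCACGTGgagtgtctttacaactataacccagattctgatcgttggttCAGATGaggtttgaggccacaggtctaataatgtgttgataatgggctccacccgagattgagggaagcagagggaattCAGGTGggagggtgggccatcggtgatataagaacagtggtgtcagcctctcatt
An E-box was present in the 300-base promoters of 64.6% of genes called higher by 2-fold, 70.6% of those called lower, 64.8% of genes not called and 69.5% of all promoters in the table.

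The subcortical maternal complex, a protein assembly under the egg membrane that embryos need for the first cleavages, fell in all but 1 gene. Of 16 genes of the complex and its NLRP relatives 15 fell and 0 rose, with a median log2 fold change of -3.76. The groups did not overlap for those 15. Over all tested genes 21.7% were lower, and 21.3% had every embryo below every oocyte. Ooep had 15.4 to 71.1 CPM (median 30.4 CPM) in embryos and 2338, 3558 and 3133 CPM in oocytes, a log2 fold change of -6.31 ± 0.32 (SE, adjusted p 3.29e-11, edgeR). Nlrp5, also called Mater, had 119.8 to 206 CPM (median 159.8 CPM) in embryos and 2869, 1615 and 1989 CPM in oocytes (log2 fold change -3.72 ± 0.20 SE). Tle6 and Padi6 fell by 4.20 ± 0.26 and 4.58 ± 0.30 (SE). The member that did not pass was Nlrp4c, with 2.32 to 41.8 CPM in embryos and 38.3, 21.5 and 16.6 CPM in oocytes. Both with and without the 3 embryos that lack granulosa markers 15 of 16 were lower.

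Genes that store and destroy maternal RNA moved in both directions. Of 28 tested 14 fell and 5 rose, where 21.7% of all tested genes were lower and 25% higher. With only the 3 embryos that lack granulosa markers 15 fell and 2 rose. Zar1, which binds stored RNA in oocytes, had 11.4 to 67.8 CPM (median 29.7 CPM) in embryos and 4212, 2001 and 2034 CPM in oocytes, a log2 fold change of -6.44 ± 0.38 (SE, adjusted p 1.61e-10, edgeR). Pabpn1l and Patl2, RNA-binding proteins of oocytes, fell by 5.73 ± 0.57 and 5.79 ± 0.66 (SE), and Ybx2, which packs stored RNA, by 2.39 ± 0.20 (SE). Among the 5 that rose were Ythdf2, a reader of methylated adenine that promotes decay, and Cnot8, a deadenylase. Ythdf2 had 209.7 to 374 CPM (median 291 CPM) in embryos and 69.5, 45.4 and 75 CPM in oocytes, and Cnot8 had 478 to 771 CPM (median 579 CPM) in embryos and 143, 223 and 173 CPM in oocytes. Their log2 fold changes were 2.15 ± 0.27 and 1.73 ± 0.25 (SE).

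Genes of the cell cycle also moved in both directions. Of 26 genes of meiotic arrest and M phase 11 fell and 8 rose, where 21.7% of all tested genes were lower and 25% higher. Mos, the kinase that holds the egg in meiotic arrest, had 0 to 5.44 CPM (median 0.346 CPM) in embryos and 1242, 505 and 435 CPM in oocytes, a log2 fold change of -8.94 ± 0.84 (SE, adjusted p 7.77e-08, edgeR). Bub1b, a spindle checkpoint kinase gene, had 20.7 to 97.1 CPM (median 34 CPM) in embryos and 954, 922 and 747 CPM in oocytes, and Aurkc, a kinase of germ cell division, fell by 2.36 ± 0.26 (SE). Cdc25c, the phosphatase that triggers M phase, had 142 to 352 CPM (median 200.2 CPM) in embryos and 20.4, 23.6 and 17.3 CPM in oocytes. Ccna2, an S and M phase cyclin, had 1088 to 2343 CPM (median 1301 CPM) in embryos and 196, 233 and 217 CPM in oocytes. Their log2 fold changes were 3.35 ± 0.35 and 2.72 ± 0.30 (SE). Of 9 tested genes of sperm binding and egg activation 6 fell, among them Izumo1r, the egg receptor Juno, with 0 to 9.87 CPM in embryos and 338, 275 and 308 CPM in oocytes, and Astl, the protease that hardens the zona, at -4.58 ± 0.51 (SE). Trpm7, a channel for divalent ions, rose by 1.70 ± 0.30 (SE).

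**Figure D4:**
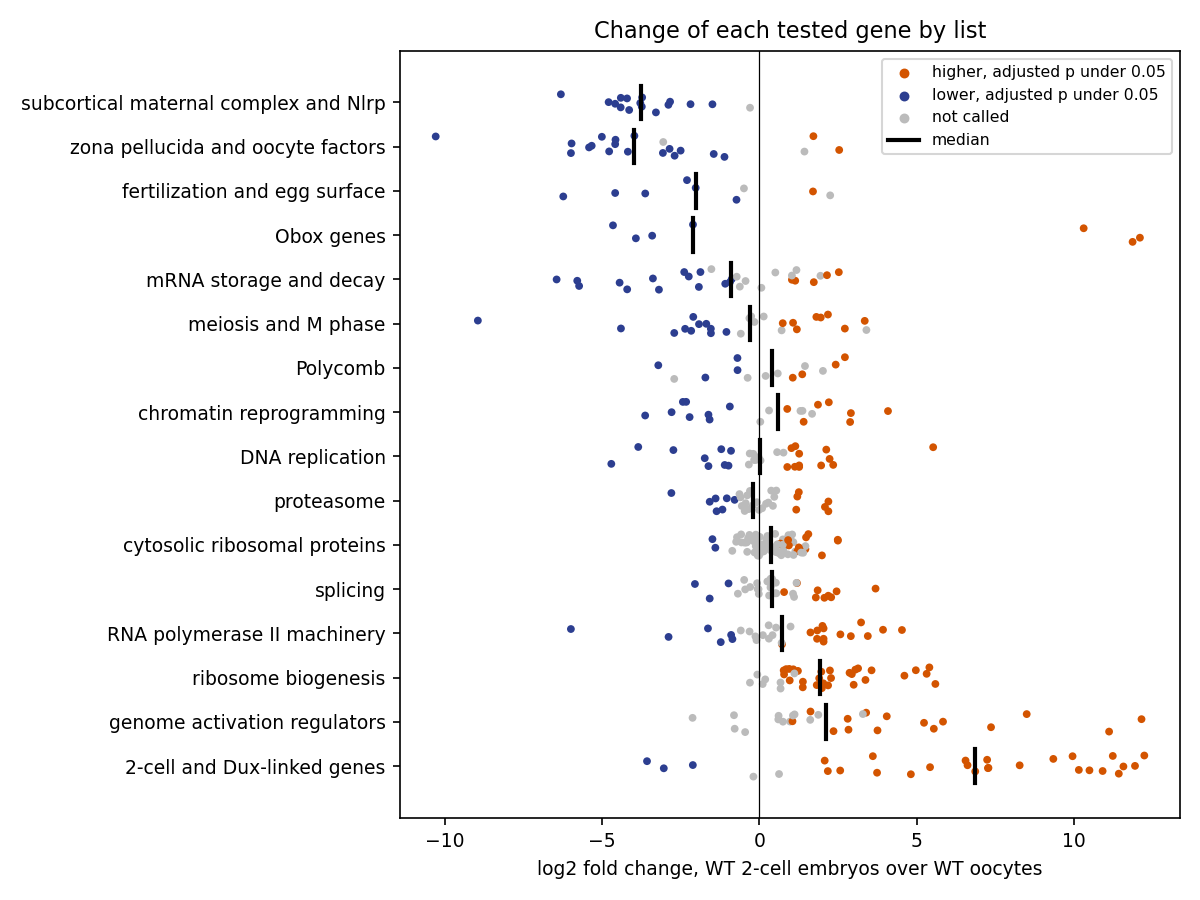
Log2 fold change of each tested gene in 16 lists, WT 2-cell embryos over WT oocytes, with 1 point per gene, coloured by the call at an adjusted p under 0.05 (edgeR), and a bar at the median of each list. Medians run from -3.97 for the zona pellucida list to 6.86 for the 2-cell list, and the Obox genes fall into 3 above 10 and 4 below -2.

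Among 20 factors of chromatin reprogramming 7 rose and 8 fell, where 25% of all tested genes were higher and 21.7% lower. Dnmt1, which maintains DNA methylation, had 97.7 to 217 CPM (median 152 CPM) in embryos and 2171, 1707 and 1802 CPM in oocytes, a log2 fold change of -3.63 ± 0.21 (SE, adjusted p 1.02e-10, edgeR). Tet3, the oxidase of methylcytosine supplied by the oocyte, fell by 2.22 ± 0.27 (SE), whereas Tet1, its relative of pluripotent cells, had 48.3 to 174 CPM (median 86.4 CPM) in embryos and 6.04, 4.98 and 5.23 CPM in oocytes (log2 fold change 4.09 ± 0.46 SE). Zfp57, a guardian of imprints, fell by 2.43 ± 0.23 (SE). Ctcf and Smarca4 rose by 1.86 ± 0.27 and 2.21 ± 0.35 (SE). Of 14 tested Polycomb genes, which cover PRC2, its partners, its inhibitor and the PRC1 ligases Ring1 and Rnf2, 4 rose (Rnf2 among them) and 4 fell. Suz12, a core subunit, had 683 to 1725 CPM (median 1115 CPM) in embryos and 151, 242 and 221 CPM in oocytes, and Mtf2, which brings the complex to CpG islands, rose by 2.72 ± 0.35 (SE). Ezh2, the catalytic subunit, and Eed, which reads the mark, fell by 0.69 ± 0.22 and 0.70 ± 0.24 (SE), with adjusted p of 0.0147 and 0.0251 by edgeR and overlapping groups. Without oocyte 2 neither passed (-0.67 with adjusted p 0.0624 and -0.51 with adjusted p 0.181, edgeR), and without oocyte 3 Eed did not (adjusted p 0.0539). Ezhip, listed as AU022751 (chrX:6081219-6083419), had 39.2 to 334 CPM (median 124 CPM) in embryos and 997, 1611 and 1513 CPM in oocytes, and fell by 3.21 ± 0.31 (SE, adjusted p 1.12e-07, edgeR) with every embryo under every oocyte.

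Replication and metabolism held single genes with large changes. Of 30 replication genes 12 rose and 9 fell. Ccne1, the cyclin of S phase entry, had 566 to 1173 CPM (median 769.8 CPM) in embryos and 23.9, 20.3 and 8.50 CPM in oocytes, a log2 fold change of 5.52 ± 0.42 (SE), while Orc5, of the origin recognition complex, fell by 3.85 ± 0.28 (SE). Of 24 genes of glycolysis and pyruvate transport 6 rose and 3 fell, where 25% of all tested genes were higher and 21.7% lower. The counts were 9 and 6 without the 3 embryos that lack granulosa markers and 1 and 4 of 21 tested with only those 3. DESeq2 size factors gave 3 and 6, and leaving out male embryo 1 alone 6 and 6. The list summed to 1232 to 2131 CPM in embryos and 6519.6 to 10462 CPM in oocytes, and without Ldhb to 834 to 1438 CPM in embryos and 915 to 1166 CPM in oocytes, so the lower sum in embryos is that of 1 gene. Ldhb, a lactate dehydrogenase subunit, had 397 to 831 CPM (median 674 CPM) in embryos and 9332, 5605 and 7542 CPM in oocytes. Among 20 stress genes 4 rose and 7 fell, and with only the 3 embryos that lack granulosa markers 4 rose and 4 fell of 19 tested. Cdkn1a, the cell cycle inhibitor, had 1.2 to 119 CPM (median 67.5 CPM) in embryos and 0.483, 0.575 and 0.531 CPM in oocytes, and Hsp90aa1 fell by 1.92 ± 0.22 (SE). Of 15 tested immediate early genes 5 rose and 1 fell, with a median log2 fold change of 1.00. Without male embryo 1, or without the 3 embryos, 5 rose and 3 fell, and with only those 3 embryos 3 rose and 2 fell of 12 tested (median -1.17).

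Per kilobase of gene, the 10 highest transcripts of the embryos were Rplp1, Gm5612, Gm28439, Gm11517, Gm12617, Dppa3, Rps12, Gm13339, Rps26 and Rplp0, and those of the oocytes were Gm15698, Ldhb, Zp3, Gdf9, Uchl1, Rplp1, H1foo, Oosp1, Obox2 and Fbxw24. Rplp1 was on both lists. Gm5612 had 669 to 3093 CPM (median 1303 CPM) in embryos and 3 counts over the oocytes, and 31.6% of its 31-base words match Map1lc3b, so part of these counts may belong to another gene. Every 31-base word of Gm28439 also occurs in the mitochondrial gene mt-Nd4 and 28.3% of those of Gm13339 in mt-Nd2, while the mitochondrial chromosome itself had no count in any library. Dppa3, which protects the maternal genome from demethylation, was not called, with 965 to 4690.1 CPM (median 1863 CPM) in embryos and 1635, 2066 and 2323 CPM in oocytes (log2 fold change 0.03 ± 0.37 SE). Uchl1, a ubiquitin hydrolase, had 280.4 to 918 CPM (median 458 CPM) in embryos and 5429, 6397 and 6092 CPM in oocytes. Mos and Figla were also among the 12 largest falls by the rule, with Atp8a2, Prss12, Glrx, Evx1, Gstt2, Gpr1, Fam188b, Cage1, Hyal2 and Gja4. Gja4, the connexin of gap junctions between oocyte and granulosa cells, had 0 to 17.1 CPM (median 7.52 CPM) in embryos and 1122, 984 and 1092 CPM in oocytes, a log2 fold change of -7.11 ± 0.73 (SE, adjusted p 2.36e-07, edgeR). Glrx, a glutaredoxin, had 0 to 6.18 CPM (median 1.94 CPM) in embryos and 398, 500.0 and 423 CPM in oocytes.

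Levels in WT blastocysts of the same prefix are given as means on a scale shared by the 3 stages, in the order oocyte, 2-cell embryo and blastocyst. The sets counted here were chosen for a high level in 2-cell embryos or in oocytes, which favours a lower level later. The same shares over all tested genes were not computed, so the counts only describe the sets. Of the 3011 genes higher by 2-fold in 2-cell embryos 953 (31.7%) had a blastocyst mean under 10% of the 2-cell mean, and 539 (17.9%) had one above it. Obox6 stood at 0.148, 582 and 17.5 CPM, Obox3 at 0.145, 201 and 0 CPM and Zfp352 at 0.0291, 65.2 and 0 CPM. Kdm5b stood at 11.3, 513 and 68 CPM and Suz12 at 202, 1047 and 163 CPM. These peaked in 2-cell embryos. Crxos stood at 0.0291, 382 and 822 CPM, Klf5 at 0, 70.8 and 354 CPM and Epcam, a cell adhesion protein of epithelia, at 1.34, 191 and 627 CPM, so they were higher again in blastocysts. Of the 2443 genes lower by 2-fold 2121 (86.8%) had a blastocyst mean under 50% of the oocyte mean, and 844 (34.5%) had one above the 2-cell mean. Gdf9 stood at 8047, 289 and 3.95 CPM and Ooep at 2969, 36.1 and 66.9 CPM. Dppa3 stood at 1981, 1946 and 2067 CPM.

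**Figure D5:**
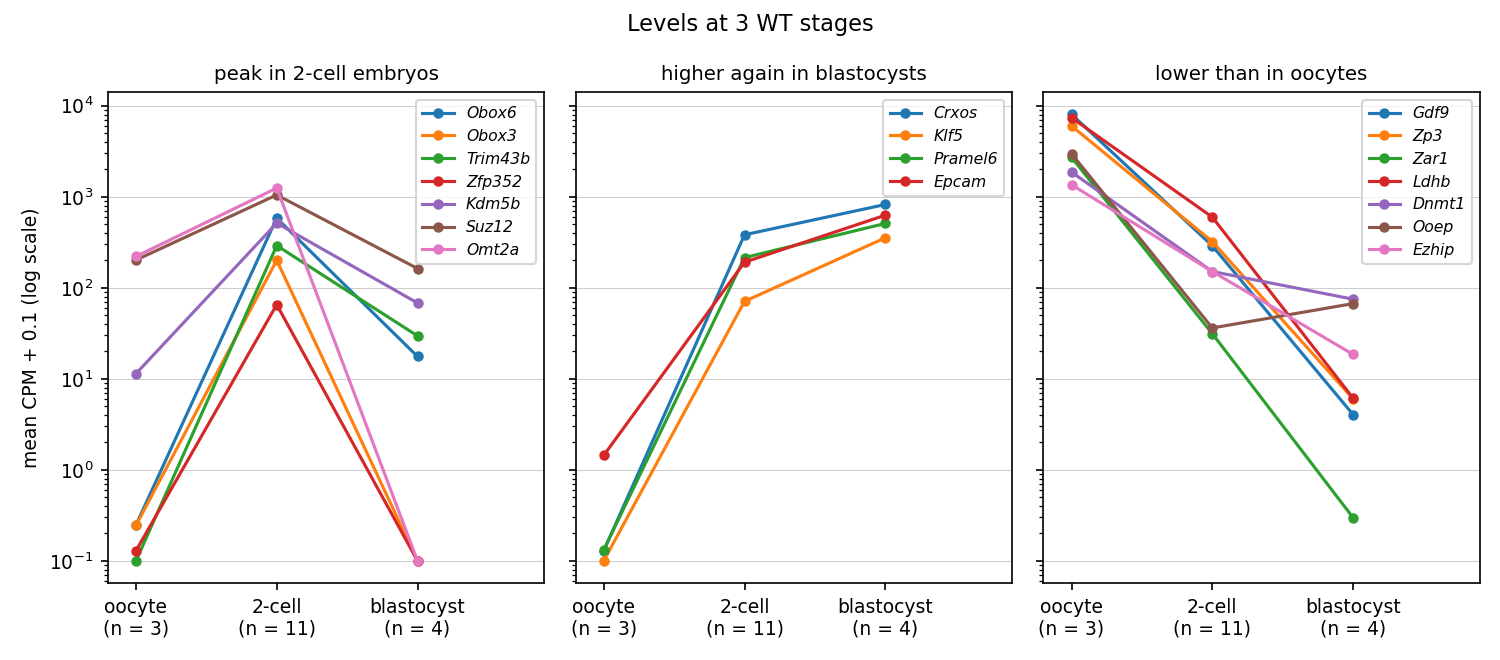
Mean level of 18 genes in WT oocytes (n = 3), WT 2-cell embryos (n = 11) and WT blastocysts (n = 4), in CPM plus 0.1 on a log scale. The left panel holds genes that peak in 2-cell embryos, such as Obox6 (0.148, 582 and 17.5 CPM), the middle panel genes that are higher again in blastocysts, such as Klf5 (0, 70.8 and 354 CPM), and the right panel genes lower at both later stages than in oocytes.

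Promoters were compared over the 11507 tested genes with a promoter in the RefSeq table. The median number of CpG pairs in 300 bases was 20 in genes called higher by 2-fold, 16 in those called lower, 19 in genes not called and 12 over all promoters of the table. GGGCGG, the motif of Sp1, was present in 60.9% of higher, 53.2% of lower, 60.5% of not called and 44.7% of all promoters. CCAAT, the motif of NF-Y, was at 39.6%, 39.3%, 38.7% and 38.3% in the same order, TATAAA at 7.59%, 7.92%, 7.84% and 12.9%, TCAAGGNCA, the motif of Nr5a2, at 1.49%, 1.12%, 1.10% and 1.31%, and TGATTNAAT at 0.513%, 0.651%, 0.243% and 0.641%. All were sought on both strands, and no test was made.

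Female and male embryos differed in 5 of 16620 genes (0.0301%; edgeR, 800 genes at an unadjusted p under 0.05). Sat1, an X-linked gene that turns over polyamines, had 148 to 343 CPM (median 297 CPM) in females and 45.5 to 103 CPM (median 72 CPM) in males, and 20.4, 23.3 and 17.6 CPM in oocytes. Every female lay above every male, with a log2 difference of 1.82 (adjusted p 0.0133, edgeR), which missed the threshold without female embryo 3 (1.71, adjusted p 0.0841) or without male embryo 6 (1.83, adjusted p 0.0531). Fthl17e, an X-linked ferritin-like gene with close copies, had 6.39 to 28.4 CPM in females and no count in males or oocytes. The Y-linked Eif2s3y averaged 0.0231 CPM in females and 30.3 ± 10.9 CPM in males (SD, n = 6), and Usp9y and Uty were also higher in every male than in any female. How sex was assigned is not stated. If Y-linked RNA was used for it, the differences in these Y-linked genes only restate the label. With each of the 14 libraries left out in turn, the call was lost in 8 fits for Fthl17e, in 8 for Usp9y, in 9 for Uty, in 2 for Sat1 and in 0 for Eif2s3y. Xist, which coats and silences the inactive X, had 79.3, 0.116, 0.194, 4.50 and 15.5 CPM in the females in order of replicate.

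The change from oocyte to 2-cell embryo differed between WT and matKO in 5 of 17486 genes (0.0286%; edgeR interaction, 976 genes at an unadjusted p under 0.05). For Ezhip itself, in this fit of 30 libraries, the WT change was -3.30 and the matKO change 3.37 on the log2 scale, a difference, WT minus matKO, of -6.67 ± 1.14 (SE, adjusted p 0.0141, edgeR). The matKO change rests on means of 3.32 CPM in matKO embryos and 0.314 CPM in matKO oocytes. Tdpoz1 averaged 96.5 ± 39.6 CPM in WT embryos and 0.651 ± 0.647 CPM in WT oocytes (SD, n = 11 and n = 3), against 142 ± 39.3 CPM in matKO embryos and no count in matKO oocytes. Pramef25, of the PRAME-like family, averaged 16.5 ± 13.4 CPM in WT embryos and 90.9 ± 52.7 CPM in matKO embryos (SD), with a difference of the changes, WT minus matKO, of -5.09 ± 0.91 (SE, adjusted p 0.0182, edgeR). Rarg had no count in WT oocytes and averaged 1.30 ± 1.03 CPM in matKO oocytes (SD, n = 4), while embryos averaged 34.3 ± 14.5 CPM in WT and 24.7 ± 10.5 CPM in matKO (SD). Tacr3, a tachykinin receptor gene, averaged 0.228 CPM in WT embryos and 17.7 CPM in matKO embryos. All 5 differences include a group close to 0 counts, where fitted fold changes depend on the prior count. Each of the 5 calls was lost when some single library was left out, and without matKO oocyte 3 no gene passed.

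The number of genes detected did not differ beyond the spread between libraries. Thinned to 1049224 counts, embryos held 14078 ± 1788 genes with a count and oocytes 14706 ± 288 (SD, n = 11 and n = 3), a difference of -628 (exact permutation test, two-sided, p = 0.632). Male embryo 1 held 9530 genes at this depth, while the lowest of the other embryos held 13036. Without male embryo 1 the embryos held 14533 ± 1012 genes (SD, n = 10), a difference of -173 (exact permutation test, two-sided, p = 0.804). Embryos varied more among themselves than oocytes. Over the 9338 genes that averaged 10 CPM or more, the median SD of log2 CPM was 0.68 among embryos and 0.33 among oocytes, and correlations across genes between libraries ran from 0.698 to 0.928 over 55 pairs of embryos and from 0.945 to 0.958 over 3 pairs of oocytes. Genes are not independent replicates, and embryo depth varied more.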

How the data were processed

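The deposited files hold raw counts per gene and library, which the authors made, per the submitters' processing notes, with Trim Galore, STAR, SAMtools and featureCounts on mm10; versions, annotation, strand setting and the handling of multi-mapping reads are not stated there. The tables were joined on the 48320 of 48321 symbols they share, and 8 count columns that match no label were not used. Reads that fit several genes may be lost or split, which bears on gene families. Total counts per library were 1049224 to 14127560, and no further depth correction than scaling was made.

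Genes passed filterByExpr with a minimum count of 10 by stage, counts were scaled by TMM over the 14 libraries, and edgeR 4.0.16 (R 4.3.3; estimateDisp and glmQLFit, robust, legacy dispersion) compared the average of the female and male embryo means with the oocytes, with Benjamini-Hochberg adjustment at 0.05 and glmTreat for 2-fold. One fit of 30 libraries with matKO gave the interaction, and female minus male came from the first fit. Standard errors are the log2 fold change over the square root of the F statistic. DESeq2 1.42.0, limma 3.58.1 voom, other scalings and filters, single sexes and each library left out were alternatives. The procedure was tested on simulated data. Detection was compared at 1049224 counts by expectation, with an exact permutation test (scipy 1.17.1). Where oocytes had 0 counts, bounds set a floor of 3 counts over the group, and counting intervals (95%, exact) cover counting error only. Gene lengths and positions are those of the deposited tables, 31-base words came from GENCODE transcripts of the mouse reference, and 300-base promoters came from RefSeq (GRCm38.p6).

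The members and gene lists were chosen with earlier results of these data known. Named genes were the 12 largest rises and falls among genes called against 2-fold with no overlap and a mean of at least 50 CPM, up to 4 called genes each way per list by smallest p, all tested members of the zona, subcortical, Obox, 2-cell, Y-linked and Polycomb lists, the 10 highest levels per kilobase, up to 5 genes for sex and for genotype, Ezhip and Xist. Of these, the text gives a part, and 1 gene of the largest rises is not reported here. Genes outside the rule were chosen after their values were seen, as were the 3 embryos set apart by their granulosa markers.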

Additional observations from a re-analysis of the deposited data

Results flagged for a closer look

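Among 304 groups of embryos examined, 43 values lay far from the others of their group. The groups draw on the same embryos, and in some the far value was the only count of a gene. The number of far values therefore cannot be compared with a chance rate. Male embryo 1 was far above the other males for Crxos (941 CPM), Cst7 (289 CPM), Zp3 (1012 CPM), Ooep (71.1 CPM), Ccna2 (2343 CPM), Ctcf (479.5 CPM), Wdr43 (1405 CPM), Usp9y (55 CPM), Farsb (217 CPM), Dppa3 (4690.1 CPM) and Rps12 (3897 CPM). Female embryo 1 was far above the other females for Prss12 (2.01 CPM), Bub1b (54.7 CPM), Wdr43 (998 CPM), Rrs1 (135 CPM), Rpl9 (1147 CPM), Rps12 (1244 CPM), Xist (79.3 CPM) and the summed levels of ribosome biogenesis genes (12819 CPM), cytosolic ribosomal protein genes (63190.3 CPM) and proteasome genes (8673 CPM). Both belong to the 3 embryos that lack granulosa markers, and the third of them, male embryo 2, was far only for Atp8a2 (0.728 CPM).

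Female embryo 2 was far above the other females for several maternal transcripts, namely Omt2b (3049.7 CPM), Oosp1 (1506 CPM), Zar1 (67.8 CPM), Mos (5.44 CPM), Tbpl2 (1.62 CPM) and the summed oocyte-defining markers (3037 CPM), and had the only count of Eif2s3y in a female (0.116 CPM). Female embryo 4 was far for Evx1 (0.692 CPM), Hyal2 (0.519 CPM), Uty (0.173 CPM) and Prm2 (11.1 CPM) and for summed blood markers (105 CPM), and male embryo 4 for Fam188b (3.39 CPM). Male embryo 5 was far for Gstt2 (2.06 CPM), Cage1 (10.9 CPM), Tbpl2 (1.19 CPM), Xist (3.58 CPM) and summed blood markers (146 CPM). Male embryo 6 was far for Prss12 (1.87 CPM) and Hyal2 (6.11 CPM), and far below the other males for Srsf1 (260.1 CPM).

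Female and male embryos differed, female minus male on the log2 scale, for Sat1 (1.82), Fthl17e (10.09), Eif2s3y (-9.37), Usp9y (-10.21) and Uty (-8.16). The change from oocyte to 2-cell embryo differed, WT minus matKO on the log2 scale, for Ezhip (-6.67), Rarg (6.71), Pramef25 (-5.09), Tacr3 (-10.18) and Tdpoz1 (-5.78).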

How the results depend on the processing

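No gene called in one direction was called in the other under any alternative run. The 4153 higher genes numbered 2625 with only the 3 embryos that lack granulosa markers, and the 3609 lower genes numbered 5838 with voom. Against 2-fold, 1908 genes were higher with only those 3 embryos, and 3859 were lower with no count filter and 3718 with newer dispersion estimates in edgeR. Leaving out 1 library at a time gave 2879 (without oocyte 3) to 4369 (without male embryo 1) higher genes and 2885 (without oocyte 2) to 4792 (without male embryo 1) lower genes, or 5988 to 9161 in all, and against 2-fold 2070 to 3123 higher, 1873 to 3228 lower and 4115 to 6351 in all. The 5 genes that differ by embryo sex became 20 with newer dispersion estimates and 40 with DESeq2, with 1 to 8 when a library was left out. The 5 genes that differ by genotype became 2 and 17, with 0 to 8. The difference in detected genes was -55 at 5 or more counts (exact p = 0.885) and -818 to -173 when a library was left out. Dppa3 (0.03) changed sign to -0.26 with DESeq2 and with its size factors, -0.18 with no filter, -0.11 with male embryos alone and between -0.39 (without male embryo 1) and 0.045 (without oocyte 2) when a library was left out. Rps12 changed sign to 0.086 with male embryos alone, and Nlrp4c lay between -0.74 (without oocyte 3) and 0.12 (without oocyte 1). None of these 3 was called over all libraries. Ovgp1, which was called, lay between -3.90 (without oocyte 1) and 0.77 (without oocyte 3). The cause of these shifts was not tested. The deviations of oocytes and female embryos with the same replicate number correlated at 0.034, 0.029 and -0.029. Those with unlike numbers correlated at between -0.061 and 0.037. With 3 libraries of each kind these values cannot show whether shared numbers pair the libraries. With the replicate block 6296 genes were called on 6 libraries (3171 higher, 3125 lower), against 7118 on the same libraries without it.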

Other observations

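Of 20 tested cytosolic tRNA synthetase genes 4 rose and 4 fell, where 25% of all tested genes were higher and 21.7% lower. The 4 that rose were Yars, Hars, Kars and Aars, and the 4 that fell were Cars, Qars, Iars and Farsb. Those that fell numbered 9 with DESeq2 size factors, 9 without male embryo 1 and 8 without the 3 embryos that lack granulosa markers, but 1 with only those 3 embryos, while 4 or 5 rose in each. Yars, which charges tyrosine tRNA, had 17.7 to 104 CPM (median 45.5 CPM) in embryos and 4.91, 0.0958 and 0.266 CPM in oocytes, and Iars, which charges isoleucine tRNA, had 200.5 to 367 CPM (median 249 CPM) in embryos and 484, 766 and 714 CPM in oocytes. The 5 immediate early genes that rose were Jund, Ier3, Myc, Zfp36 and Klf2, and Dusp1, a phosphatase of MAP kinases, fell. Without oocyte 2 the calls of Dusp1 (-1.06, adjusted p 0.188, edgeR) and Jund (2.79, adjusted p 0.0798, edgeR) were lost. Klf2, a factor of naive pluripotency, had 21.5 to 181 CPM (median 66.4 CPM) in embryos and 2.42, 13.1 and 3.54 CPM in oocytes. Among 8 tested genes of a list of Xist and genes imprinted through H3K27me3, Jade1 was the member called higher (3 were without the 3 embryos that lack granulosa markers, and 2 of 3 tested with only those 3), with 53 to 272 CPM (median 115 CPM) in embryos and 4.59, 3.45 and 3.28 CPM in oocytes.

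The marker lists not described above were those of blastocyst lineages, sperm and oviduct epithelium. Of 9 blastocyst lineage markers Nanog was called higher, at 0 to 5.41 CPM (median 2.32 CPM) in embryos and 0, 0 and 0.0886 CPM in oocytes, while Cdx2 had no count in either. The sperm genes Tnp1, Tnp2, Akap4 and Smcp had no count, and Prm2 fell, with 0 to 11.1 CPM in embryos and 10.4, 13.3 and 31.8 CPM in oocytes. The call of Prm2 was lost without oocyte 3 (adjusted p 0.118, edgeR), without the 2 shallowest embryos (adjusted p 0.0519), with female embryos alone (adjusted p 0.0969) and with only the 3 embryos that lack granulosa markers (adjusted p 0.0515). Among 8 oviduct markers Epcam rose and Ovgp1 fell, with 0 to 27.9 CPM in embryos and 0.966, 3.16 and 116 CPM in oocytes. The fall of Ovgp1 rests on oocyte 3, since without it the log2 fold change was 0.77 (adjusted p 0.736, edgeR), and it was not called with female embryos alone (adjusted p 0.298) or with only the 3 embryos (adjusted p 0.0716). Pseudogenes made up 186 of the 3011 genes higher by 2-fold (6.18%), 33 of the 2443 lower genes (1.35%) and 646 of all 16620 tested (3.89%). Multi-mapping reads bear on such genes, and their part was not tested.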
